A study of Mus musculus with 4 samples.

Results

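The kinetochore is the protein assembly that ties each chromosome to spindle microtubules, and the spindle checkpoint is the signal that holds a cell in metaphase until every kinetochore is attached. The 41 genes described here are, but for the centriole gene Cenpj, genes of these assemblies: the centromeric histone Cenpa and its partner Cenpb, 13 genes of the constitutive centromere network, the NDC80 and MIS12 complexes, the adaptors Zwint and Zw10, the corona proteins Cenpe and Cenpf, 6 checkpoint genes, the SKA complex, the chromosomal passenger complex, and Cenpj. They were picked by gene symbol from the 22063 genes of the deposited table, and all 41 were found and passed the filter on low counts, which 11448 genes passed. The list was drawn up with results of the same comparison known. The values of its members are therefore a description and are printed without p-values. Calls of members, as lower, higher or not called, mark the side of a threshold on the adjusted p. They are part of that description and not independent tests.

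RNA was sequenced from ID8 cells, a mouse ovarian cancer line derived from ovarian surface epithelium. The cells carried either a control short hairpin RNA (shCtrl, genotype labelled WT) or a hairpin against Usp9x (shUSP9X, labelled as USP9X knockdown), delivered by pLKO.1-puro lentivirus. Each group had 2 libraries. The labels give neither the hairpin sequence, nor whether TGF-β1 was added, nor the oxygen level. Nothing states that the replicates were separate cultures, so the standard errors measure only the spread between these libraries. In the fit used, that spread is in part shared across all genes tested and is not each gene's own alone. Estimated counts came to 17232006 and 15611363 per shCtrl library, and to 19978889 and 17021261 per shUSP9X library. Libraries of the same group differed by more than sampling noise (chi-square per gene 3.41 for shCtrl and 2.23 for shUSP9X).

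Kinetochores are built in layers. Nucleosomes with the histone variant CENP-A carry the constitutive centromere network, which recruits the MIS12 complex, the scaffold KNL1 and the NDC80 complex that grips microtubules. Checkpoint kinases and the MAD and BUB proteins load on this outer layer, and much of the gene set is transcribed in G2 and M phase, so its mRNA level in a culture follows the share of dividing cells. In bulk RNA, fewer cells in those phases and less RNA per cell cannot be told apart.

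Usp9x, the gene that encodes the targeted deubiquitinase (chromosome X, 13071498 to 13173328, GRCm38), was counted at 5169 and 4453 in the shCtrl libraries and at 390 and 346 in the shUSP9X libraries. Usp9x was thus low in both libraries labelled as knockdown, with a log2 fold change of -3.85, or -2.37 under the GC and length offset described further on. Of 7 ovarian surface epithelial markers, 6 were well above a floor of 3 counts in every library, with Krt19 the most abundant, and their summed level was 2410 and 2430 CPM (counts scaled for library size by TMM) in shCtrl and 2770 and 2720 CPM in shUSP9X. They did not move together: Krt8 and Krt18 had log2 fold changes of 0.92 and 0.65, and Wt1 and Msln of -0.52 and -0.47, all 4 called, and under that offset 4 of the 6 were lower. Krt7 was the marker not above the floor, with no counts in shCtrl and with 2 and 3 counts in shUSP9X. Of 10 leukocyte, endothelial and erythroid markers, Cd3e, C1qa and Cdh5 had no counts in any library. The sum of the 10 was 9 and 19 counts in shCtrl (0.519 and 1.2 CPM) and 137 and 129 counts in shUSP9X (6.93 and 7.66 CPM). The most abundant was Itgam, with no counts in shCtrl and 72 and 75 in shUSP9X, although its exons largely coincide with those of Gm49368 on the same strand. Ptprc had no counts in shCtrl and 29 and 18 in shUSP9X, and Csf1r none and then 17 and 13. Pecam1 held all of the shCtrl marker counts, at 9 and 19, and had 19 and 13 counts in shUSP9X. Whether this small leukocyte signal has any part in the results below was not tested.

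The set split in both directions. In counts scaled by the TMM method and compared with edgeR's quasi-likelihood fit, 17 members were called lower and 14 higher after knockdown with the adjusted p threshold at 0.05, and 10 were not called. Of all genes tested, 33.6% were called lower and 33.8% higher, and since the members were chosen with this comparison known, nothing is read from their share. The median log2 fold change of the members was 0.02, against -0.001 for all genes tested, and it was -0.03 without shCtrl replicate 2. A log2 fold change below -1 was seen in 9 members and none was above 1, where all genes tested had 10.6% below -1 and 3.56% above 1. The 9 were Cenpf, Cenpe, Cenpj, Cenpk, Ndc80, Ttk, Cenpq, Bub1 and Cenpc1, while the largest rise was that of Pmf1 at 0.75. The groups did not overlap in CPM in 35 members, 18 of them lower and 17 higher after knockdown, and likewise in 82.3% of all genes tested.

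**Figure D1:**
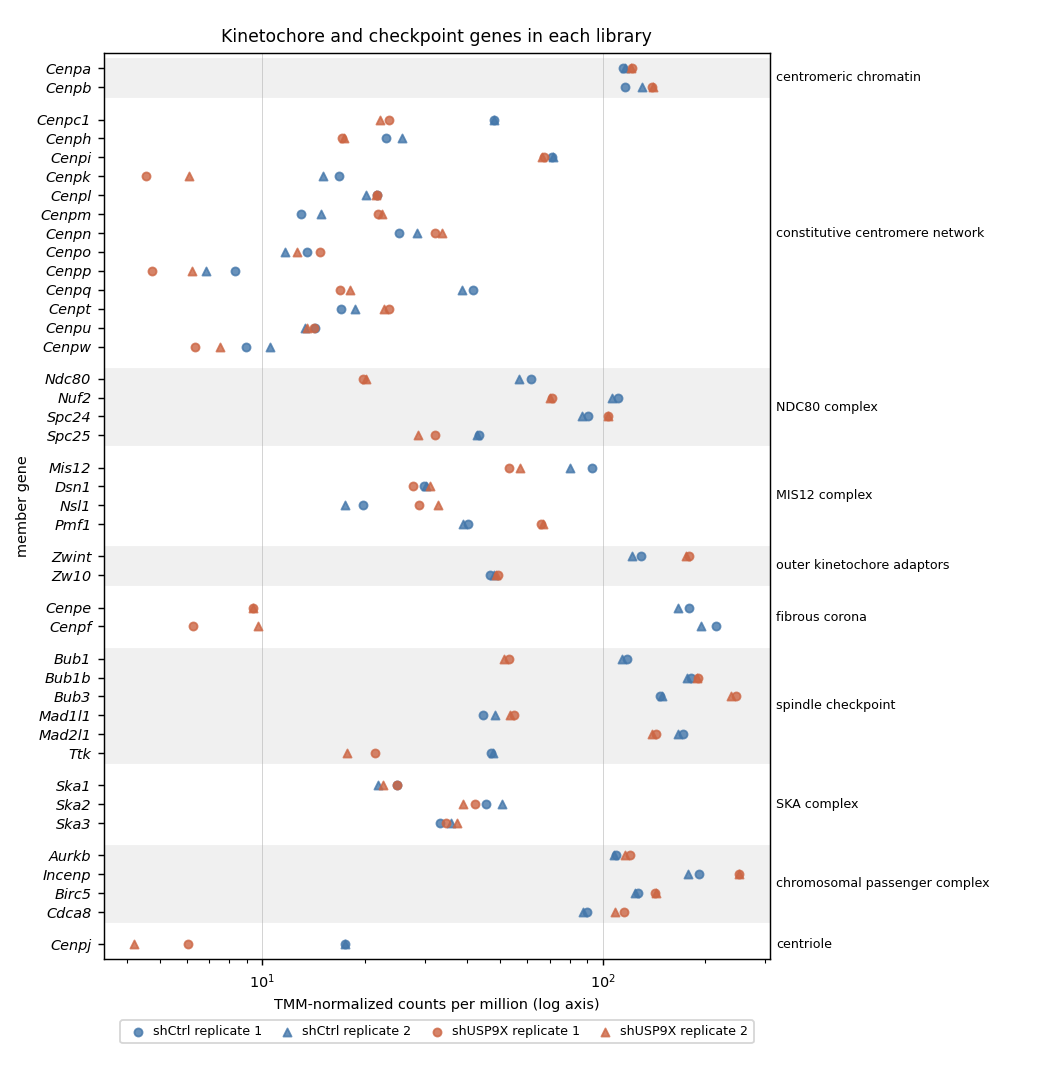
TMM-normalized CPM (log axis) of the 41 members in each of the 4 libraries, grouped by role, with shCtrl in blue, shUSP9X in red, circles for replicate 1 and triangles for replicate 2. Cenpe and Cenpf show the widest gaps, from 167 CPM or more in shCtrl to 9.73 CPM or less in shUSP9X. Replicates of a group differ by less than these gaps, but not all are close. In shUSP9X, Cenpf was at 6.27 and 9.73 CPM and Cenpj at 6.07 and 4.21 CPM. CPM is not scaled for length, so rows are to be compared across libraries and not with each other.

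Summed over the set, members made up 2961 and 2886 CPM in shCtrl and 2622 and 2599 CPM in shUSP9X, and both shUSP9X sums were the lower. Cenpe and Cenpf together accounted for 394.5 and 360.7 CPM of this in shCtrl and for 15.7 and 19.1 CPM in shUSP9X. Without them the sums were 2566 and 2525 CPM in shCtrl and 2606 and 2579 CPM in shUSP9X. This small difference of the 39 remaining members depends on the scaling, since with library size only their sums were 2584 and 2559 against 2580 and 2554, and the groups overlapped. Cenpe and Cenpf had the deepest falls of the set, so leaving them out was bound to raise the shUSP9X sums relative to shCtrl. Among the remaining members falls and rises offset each other in these sums, which are a description only.

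Across all genes, fold changes in this comparison followed the GC content and the length of the transcripts, as described further on for the members. The fit was therefore repeated with an offset that removed each library's smooth trend on GC content and transcript length, here called the GC and length offset. Whatever the origin of a difference, the offset removes the portion of it that tracks those features. Under it 14 members were lower and 10 higher, beside 30.9% and 32.4% of all genes tested, and the median of the members was -0.01. Of the 17 members called lower, 13 were lower under the offset too, 1, Cenpp, was not called, and 3, Cenpw, Mad2l1 and Ska2, were higher. Of the 14 called higher, 6 were higher under the offset, 7 were not called and 1, Aurkb, was lower. Cenpi, not called before, was higher under the offset. The offset takes GC content and length from 1 annotated transcript per gene, the one with the longest coding sequence. The deposited counts and FPKM imply a length for each gene, and for 602 of 11430 tested genes (5.27%) that transcript was more than 2 times longer or shorter than implied, Cenpo, Cenpu and Mad2l1 being the members among them. With the annotated transcript nearest to the implied length instead, a choice made after seeing the data, 18 members were lower and 11 higher, beside 30.8% and 32.5% of all genes tested. Its values are given for the members whose call changed and for some whose size did.

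Promoters are shown for 5 members that carry the contrast within the set: the corona genes Cenpe and Cenpf with the deepest falls, the checkpoint kinase genes Bub1 and Ttk, which were lower, and Bub3, the partner gene of Bub1, which was higher. The sequences are from RefSeq for GRCm38.p6, from 100 bases before to 50 after the annotated start, written 5′ to 3′ on the strand of the gene. Capitals mark 3 motifs searched on both strands, none of which overlap in these windows. The CCAAT box is spelled CCAAT and reads ATTGG on the other strand. The cell cycle homology region was searched in a pair of spellings. The spelling TTTGAA reads TTCAAA on the other strand. The spelling TTTAAA is its own reverse complement. Both kinds of motif are known from promoters of G2 and M phase genes.
Cenpe (chr3:135212463-135212612, plus strand): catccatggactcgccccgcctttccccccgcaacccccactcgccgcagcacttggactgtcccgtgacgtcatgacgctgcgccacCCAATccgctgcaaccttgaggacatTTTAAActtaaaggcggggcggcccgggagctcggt
Cenpf (chr1:189688037-189688186, minus strand): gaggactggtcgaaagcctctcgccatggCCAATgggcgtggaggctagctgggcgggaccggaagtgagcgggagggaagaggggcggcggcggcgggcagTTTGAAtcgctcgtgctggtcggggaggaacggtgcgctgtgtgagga
Bub1 (chr2:127831810-127831959, minus strand): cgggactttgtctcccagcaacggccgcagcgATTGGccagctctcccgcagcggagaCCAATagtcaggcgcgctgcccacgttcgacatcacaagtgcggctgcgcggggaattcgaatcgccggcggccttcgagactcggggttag
Ttk (chr9:83834589-83834738, plus strand): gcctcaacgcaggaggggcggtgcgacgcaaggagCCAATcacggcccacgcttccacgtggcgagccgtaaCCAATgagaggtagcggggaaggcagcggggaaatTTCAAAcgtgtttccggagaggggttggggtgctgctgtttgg
Bub3 (chr7:131560270-131560419, plus strand): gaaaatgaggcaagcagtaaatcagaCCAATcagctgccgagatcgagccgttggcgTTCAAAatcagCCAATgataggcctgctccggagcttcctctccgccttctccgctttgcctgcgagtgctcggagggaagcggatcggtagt

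All 5 windows held CCAAT on at least 1 strand, whichever way the gene moved. A promoter was matched for 36 of the 41 members, and Nsl1, Incenp, Ska1, Aurkb and Spc24 were without one. Promoters on chromosome 18, where Ska1 lies, had been left out beforehand, so all shares given here lack that chromosome. In windows from 250 bases before to 50 after the start, CCAAT was found in 23 of the 36 member promoters (63.9%), against 37.9% of all 27025 promoters and 39.4% of those of tested genes. TTTGAA was found in 14 (38.9%), against 18.1% and 11.8%. TTTAAA was found in 8 (22.2%), against 13.2% and 8.66%. By call, CCAAT stood in 12 of 17 promoters of lower members and in 6 of 10 of higher members, and TTTGAA in 5 of 17 and 4 of 10. A match of these letters is a description of the sequence and not evidence of a bound factor.

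Cenpe and Cenpf, whose products belong to the fibrous corona, the outermost layer that forms on unattached kinetochores, had the lowest fold changes of the set. Cenpe encodes CENP-E, a very large kinesin that carries chromosomes towards the spindle equator (chromosome 3, 135212537 to 135273611). It was counted at 3116 and 2635 in shCtrl and at 186 and 158 in shUSP9X, or 180 and 167 CPM against 9.41 and 9.38 CPM. The groups were far apart, with a log2 fold change of -4.20 (SE 0.073), which is 18.4-fold lower. Cenpf encodes CENP-F, a large coiled-coil protein of the corona and of the nuclear matrix in G2 (chromosome 1, 189640606 to 189688086). It was counted at 3725 and 3069 in shCtrl and at 124 and 164 in shUSP9X, or 215 and 194 CPM against 6.27 and 9.73 CPM. Its log2 fold change was -4.70 (SE 0.093), or 25.9-fold lower, and it ran from -5.03 to -4.39 over the 4 fits that each lacked a library. Cenpf ranked 10 and Cenpe 22 from the lowest fold change among the 11448 genes. Under the GC and length offset the values were -3.51 for Cenpf and -3.36 for Cenpe, so both stayed the lowest of the set.

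Among the checkpoint genes Bub1 and Ttk were lower and Bub3 was higher. Bub1, a kinase that marks centromeric histone H2A and holds other checkpoint proteins at the kinetochore, was at 118 and 114 CPM in shCtrl and 52.9 and 51.5 CPM in shUSP9X (log2 fold change -1.15, SE 0.056). Ttk, the MPS1 kinase that starts checkpoint signalling, was at 46.8 and 47.7 CPM in shCtrl and 21.5 and 17.7 CPM in shUSP9X (-1.26, SE 0.092). In neither gene did the groups overlap, and under the offset the values were -0.59 and -0.94. Bub3, the propeller protein that docks BUB1 and BUBR1 on KNL1, went the other way, from 147 and 149 CPM to 247 and 238 CPM (0.71, SE 0.043, 0.54 under the offset). The 3 remaining genes differed less. Bub1b, which encodes BUBR1 of the mitotic checkpoint complex, was at 182 and 177 CPM in shCtrl and 190 and 189 CPM in shUSP9X and was not called (0.08, SE 0.043), although it was called higher without shCtrl replicate 1 (0.11) and with upper-quartile scaling (0.11). Mad1l1, the kinetochore anchor of MAD2, was higher by 0.23 (SE 0.069) and was not called by DESeq2 (0.24) or under the offset, where its value was -0.03. Mad2l1, which encodes the MAD2 protein that inhibits CDC20, was lower (-0.25, SE 0.046), and under the offset it was higher (0.81). The transcript used there is 7557 bases long, whereas the deposited values imply 2575 bases, and with the annotated transcript nearest to that length (1725 bases) the value was 0.16.

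**Figure D2:**
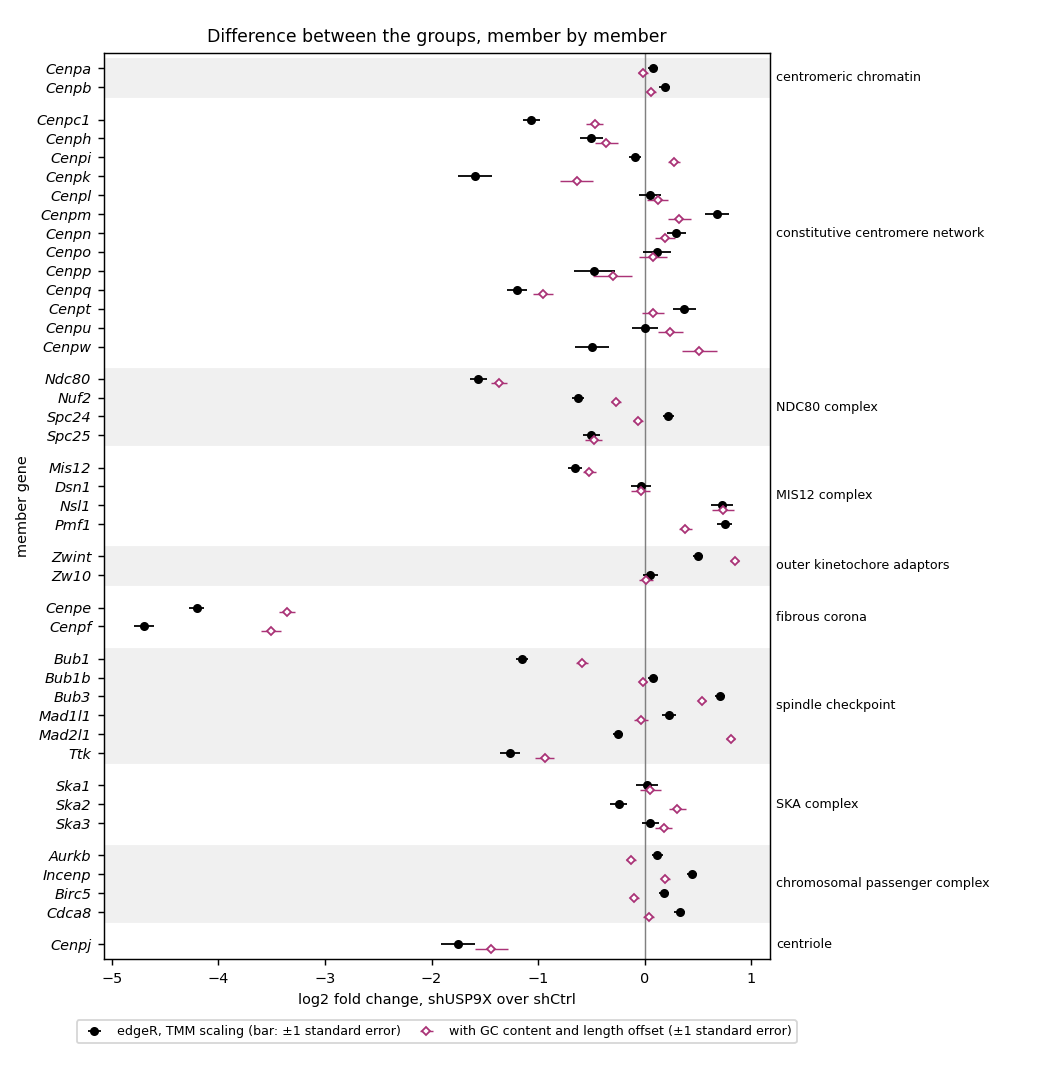
Log2 fold change of each member, shUSP9X over shCtrl, with 1 standard error on each side, from edgeR with TMM scaling (filled circles) and with the GC and length offset (open diamonds). Cenpf (-4.70 and -3.51) and Cenpe (-4.20 and -3.36) lie far to the left in both fits, and among the genes that change side between the fits are Mad2l1 (-0.25 and 0.81), Ska2 (-0.25 and 0.31) and Cenpw (-0.49 and 0.51).

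The NDC80 complex is a rod of 4 proteins in which NDC80 and NUF2 bind the microtubule and SPC24 and SPC25 hold the kinetochore. Ndc80 itself (chromosome 17, 71496100 to 71526857) was counted at 1064 and 898 in shCtrl and at 392 and 341 in shUSP9X, 61.4 and 56.8 CPM against 19.8 and 20.2 CPM (log2 fold change -1.56, SE 0.082). Nuf2 was at 111 and 106 CPM in shCtrl and at 71.1 and 69.8 CPM in shUSP9X (-0.62, SE 0.054). Spc25 was at 43.3 and 42.8 CPM in shCtrl and at 32.1 and 28.7 CPM in shUSP9X (-0.50, SE 0.082). These 3 stayed lower under the offset, at -1.37, -0.27 and -0.48, the last being -0.23 with the nearest transcript. Spc24 was at 90.4 and 86.6 CPM in shCtrl and at 103 CPM in both shUSP9X libraries (0.22, SE 0.052), and was not called under the offset (-0.06), while with the nearest transcript it was lower (-0.14). Compared per length as FPKM, the most abundant subunit gene, Spc24, stood 3.33 and 3.36 times above the least abundant, Ndc80, in the shCtrl libraries. In the shUSP9X libraries this ratio was 11.2 and 11.7, so in FPKM the mRNAs of a complex with equal parts of each subunit were further from equal. FPKM carries no correction for GC content. The log2 fold changes of Spc24 and Ndc80 were 0.22 and -1.56 without the offset, and -0.06 and -1.37 under it.

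The MIS12 complex, the bridge between the centromere network and the microtubule-binding layer, had members on both sides. Mis12 was at 92.7 and 80.2 CPM in shCtrl and at 53.2 and 57.0 CPM in shUSP9X (log2 fold change -0.65, SE 0.067, -0.52 under the offset), with 7.69% of its exonic bases shared with Derl2 on the opposite strand. Pmf1 was at 40.1 and 38.8 CPM in shCtrl and at 66.0 and 66.8 CPM in shUSP9X, the highest fold change of the set (0.75, SE 0.067, 0.38 under the offset). Nsl1 was at 19.7 and 17.5 CPM in shCtrl and at 28.9 and 32.8 CPM in shUSP9X (0.72, SE 0.102, 0.73 under the offset). Dsn1 overlapped between the groups, at 29.9 and 30.2 CPM against 27.7 and 31.0 CPM (-0.04, SE 0.091). In FPKM the ratio of Pmf1 to Nsl1, the highest and lowest of this complex, was 7.17 and 5.67 in shCtrl and 7.01 and 6.12 in shUSP9X, and here the groups overlapped.

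Zwint links the scaffold KNL1 to the RZZ complex, which contains Zw10 and brings dynein and MAD1 to the kinetochore. Zwint was at 130 and 122 CPM in shCtrl and at 179 and 176 CPM in shUSP9X (log2 fold change 0.50, SE 0.047). Under the offset its value was 0.85, and 0.40 with the nearest transcript. Zw10 was at 46.7 and 47.8 CPM against 49.4 and 48.7 CPM and was not called (0.05, SE 0.069).

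**Figure D3:**
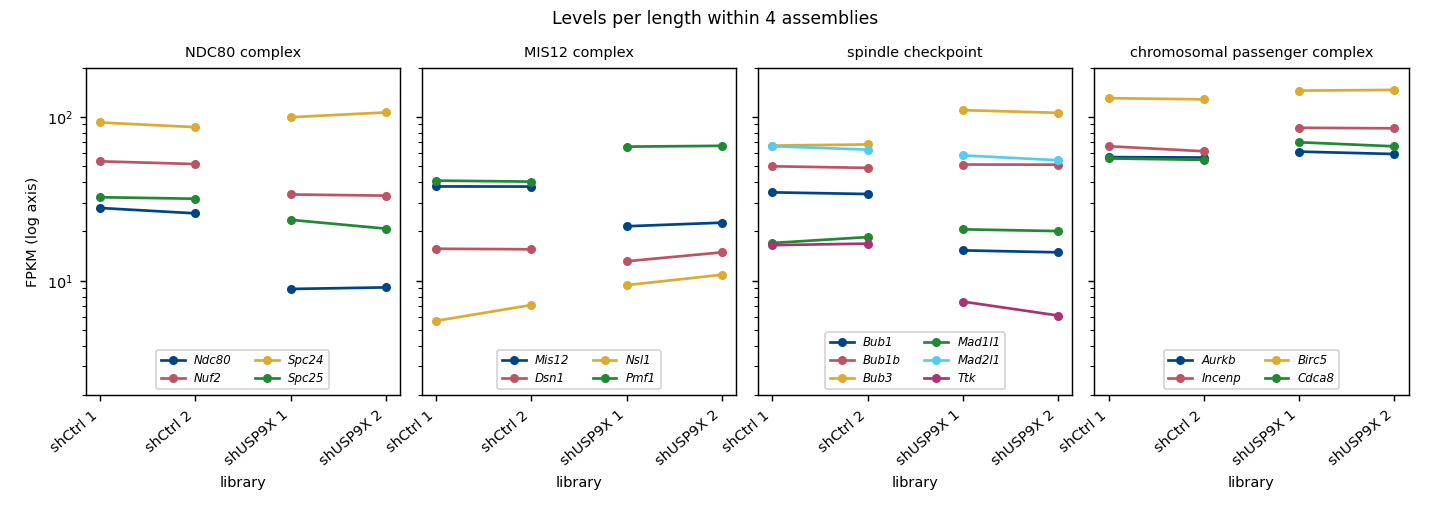
FPKM (fragments scaled for transcript length and library size, log axis) of the subunit genes of the NDC80, MIS12, spindle checkpoint and chromosomal passenger groups in each library, with lines joining the 2 libraries of a group. The spread between the highest and lowest gene widened in the NDC80 complex (from 3.36 to 11.2 times or more) and among the checkpoint genes (from 4.06 to 14.8 times or more). FPKM is not corrected for the trend of the fold changes with GC content. In the chromosomal passenger complex Birc5 stood 2.33 and 2.34 times above the lowest gene Cdca8 in shCtrl, and 2.36 and 2.46 times above the lowest gene Aurkb in shUSP9X.

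At the foundation of the kinetochore, the 2 genes of centromeric chromatin differed little. Cenpa, the histone H3 variant that marks centromeres, was at 114 and 116 CPM in shCtrl and at 122 and 121 CPM in shUSP9X and was not called (log2 fold change 0.08, SE 0.048). It was called higher with upper-quartile scaling (0.11), and lower under the offset with the nearest transcript (-0.23). Cenpb, which binds a motif in centromeric satellite DNA, was at 116 and 130 CPM against 140 and 141 CPM (0.19, SE 0.052) and was not called under the offset (0.06) or in the FPKM fits (0.155 and 0.16). Its value was 0.11 without shCtrl replicate 1. In FPKM, Cenpa was at 109 and 99.0 in shCtrl and at 116 and 107 in shUSP9X, among the highest levels of the set.

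The constitutive centromere network sits on this chromatin throughout the cell cycle, and 6 of its 13 genes were lower, 3 higher and 4 not called, beside 33.6% lower and 33.8% higher of all genes tested. Under the offset 4 were lower and 3 higher. Cenpk had the largest fall of the network, from 16.8 and 15.1 CPM in shCtrl to 4.55 and 6.11 CPM in shUSP9X (log2 fold change -1.59, SE 0.157), and it was reduced to -0.64 under the offset. Cenpq fell from 41.6 and 38.6 CPM to 16.9 and 18.1 CPM (-1.20, SE 0.094, -0.95 under the offset). Cenpc1, which encodes CENP-C, the direct reader of CENP-A nucleosomes, fell from 48.0 and 47.9 CPM to 23.6 and 22.3 CPM (-1.06, SE 0.083, -0.47 under the offset). Cenph, a partner of CENP-K, was lower too (-0.50, SE 0.106, -0.36 under the offset). The calls of the remaining lower genes were less firm. Cenpp (-0.47, SE 0.191) was not called without shCtrl replicate 1 (-0.32) or without shUSP9X replicate 1 (-0.28), by DESeq2 (-0.46) or under the offset (-0.30), and 27.5% of its exonic bases are shared with Ippk on the opposite strand. Cenpw (-0.49, SE 0.163) was not called without shCtrl replicate 2 (-0.38) or without shUSP9X replicate 1 (-0.37) or by DESeq2 (-0.48), and was higher under the offset (0.51).

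Among the higher genes of the network, Cenpm went from 13.0 and 14.9 CPM in shCtrl to 21.9 and 22.6 CPM in shUSP9X (log2 fold change 0.68, SE 0.113, 0.33 under the offset). Cenpt, which recruits NDC80 directly, went from 17.1 and 18.7 CPM to 23.5 and 22.8 CPM (0.37, SE 0.105) and was not called under the offset (0.08). Cenpn, which binds the CENP-A nucleosome together with CENP-L, went from 25.2 and 28.5 CPM to 32.2 and 33.8 CPM (0.30, SE 0.092), and was not called under the offset (0.19), by DESeq2 (0.31) or without shCtrl replicate 1 (0.22). Within subcomplexes the members diverged. CENP-H, I, K and M form a complex, and their genes had values of -0.50, -0.09, -1.59 and 0.68. CENP-O, P, Q and U form another, with 0.12, -0.47, -1.20 and 0.00 for Cenpo, Cenpp, Cenpq and Cenpu. Cenpi did not overlap between the groups but was not called (-0.09, SE 0.058), and it was higher under the offset (0.28). Cenpl (0.05), Cenpo and Cenpu overlapped between the groups, although with the nearest transcript in the offset Cenpl was called higher (0.28) and Cenpu lower (-0.30). Reads of Cenpo and Cenpu may in part be those of Adcy3 and Primpol, which share 24.1% and 36.5% of their exonic bases on the opposite strand.

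The SKA complex couples kinetochores to shrinking microtubule ends. Ska1 was at 24.9 and 21.9 CPM in shCtrl and at 24.8 and 22.6 CPM in shUSP9X (log2 fold change 0.02, SE 0.102), and Ska3 at 33.3 and 35.9 CPM against 34.7 and 37.3 CPM (0.06, SE 0.083). The groups overlapped in both. Ska2 was lower (-0.25, SE 0.077) but was not called without shCtrl replicate 2 (-0.16) or without shUSP9X replicate 2 (-0.19) or by DESeq2 (-0.24), and it was higher under the offset (0.31).

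The chromosomal passenger complex corrects wrong attachments through the Aurora B kinase. All 4 of its genes were called higher, by 0.12 to 0.45 on the log2 scale, beside 33.8% of all genes tested, but under the GC and length offset only Incenp was (0.19), Aurkb was lower (-0.13), and Cdca8 (0.04) and Birc5 (-0.10) were not called. With the nearest transcript Birc5 was called lower at the same value. Incenp, the scaffold, went from 192 and 178 CPM in shCtrl to 252 CPM in both shUSP9X libraries (0.45, SE 0.043). Cdca8, which encodes borealin, went from 90.1 and 87.8 CPM to 115 and 108 CPM (0.33, SE 0.052). Birc5, which encodes survivin, went from 127 and 124 CPM to 142 and 144 CPM (0.18, SE 0.047). Aurkb, the kinase gene, went from 109 and 108 CPM to 120 and 116 CPM (0.12, SE 0.049), and was not called without shUSP9X replicate 1 (0.09) or replicate 2 (0.15), with library size only (0.09), by DESeq2 (0.13) or in the FPKM fits (0.09). In FPKM the highest of these genes was Birc5 in all 4 libraries, and the lowest was Cdca8 in shCtrl and Aurkb in shUSP9X.

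Cenpj bears a centromere protein name, but its product CPAP builds centrioles. It was counted at 304 and 276 in shCtrl and at 120 and 71 in shUSP9X, or 17.5 CPM in both shCtrl libraries against 6.07 and 4.21 CPM. The log2 fold change was -1.75 (SE 0.156), the third lowest of the set, and -1.44 under the offset.

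The sizes of the proteins and the base composition of the transcripts ran alongside these differences. The set spans CENP-F with 2997 residues and CENP-E with 2471 down to CENP-W with 86. At a split of 800 residues, chosen after the values had been seen, 8 members were large: Cenpf, Cenpe, Cenpj, Bub1, Bub1b, Cenpc1, Incenp and Ttk. Of these 6 were lower and 1, Incenp, was higher, with a median log2 fold change of -1.21. Of the 33 smaller members 11 were lower and 13 higher, with a median of 0.05. The same split of all tested coding genes gave 49.5% lower among 2550 large genes, with 612 of them higher, and 29.0% lower and 36.6% higher among 8866 smaller genes.

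GC content separated the members more closely than size. At a split of 45% GC, also chosen after the values had been seen, 14 of 17 members below it were lower and 1 higher, while 3 of 24 above it (Spc25, Mis12 and Cenpj) were lower and 13 higher. On the transcripts nearest to the implied lengths the split was 16 of 18 lower and 0 higher below it, and 1 of 23 lower and 14 higher above it. Among all tested coding genes, taken on the transcript with the longest coding sequence, 71.2% of the 2536 below the split were lower and 211 were higher. Of the 8880 above it, 2027 were lower and 3643 higher. On the nearest transcripts the split was made for the members only, so those counts have no share of all tested genes beside them. Cenpe (42.9% GC), Cenpf (43.3%), Cenpc1, Bub1 and Ttk were both large and below the split. All 5 were lower, with a median of -1.26, and so were 470 of the 516 tested coding genes of that kind (91.1%), with a median of -1.28. The large members that were not lower, Bub1b and Incenp, had 50.4% and 55.2% GC. Across the 41 members Spearman's rho of the log2 fold change was 0.743 with GC content, -0.271 with transcript length and -0.310 with protein length. On the nearest transcripts it was 0.772 with GC content and -0.264 with length. Without Cenpe and Cenpf the values were 0.753, -0.153 and -0.199 over 39 members, and across 11416 tested coding genes they were 0.437, -0.311 and -0.229. Genes are not independent replicates and share the libraries and their base composition trend, so these are descriptions, and where the trend came from was not tested.

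**Figure D4:**
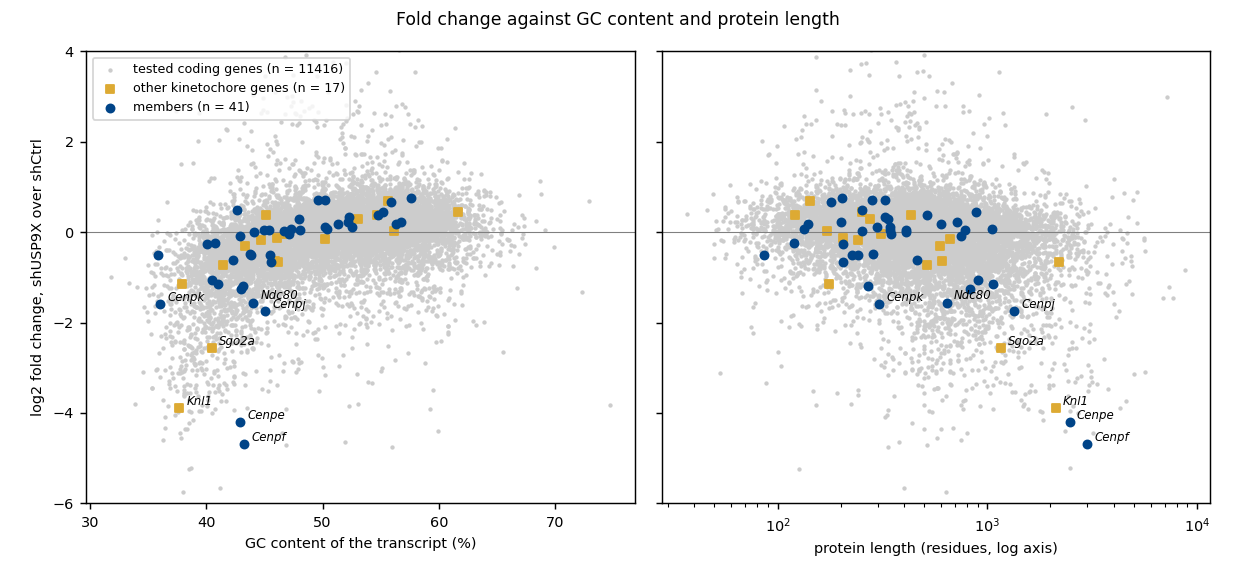
Log2 fold change, shUSP9X over shCtrl, against GC content of the transcript (left, percent) and protein length (right, residues on a log axis) for the 41 members (blue circles), 17 other kinetochore genes (yellow squares) and 11416 tested coding genes (grey), of which 67 lie outside the plotted range of -6 to 4. Members rise with GC content (Spearman's rho 0.743), and the lowest, Cenpf and Cenpe, are also the largest proteins.

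Genes of the same machinery that are not in the set were read from lists written by function, also with earlier results known, so their adjusted p-values, which come from the fit over all genes, are not independent of that choice. Of 17 other kinetochore and centromere genes 8 were lower and 5 higher (7 and 2 under the offset), beside 33.6% lower and 33.8% higher of all genes tested (30.9% and 32.4% under the offset), with a median log2 fold change of -0.145. Knl1, the scaffold on which the checkpoint assembles and itself a protein of 2119 residues with 37.7% GC, was counted at 1338 and 1135 in shCtrl and at 98 and 85 in shUSP9X (-3.90, SE 0.101, edgeR adjusted p = 1.1e-21). Sgo2a, a shugoshin that guards centromeric cohesin, fell from 93.5 ± 3.45 to 15.7 ± 0.428 CPM (SD, n = 2 libraries each; -2.57, SE 0.075, edgeR adjusted p = 1.2e-20), with 49.7% of its exonic bases shared with Kctd18 on the opposite strand. These falls were -2.54 and -1.79 under the offset. Itgb3bp, which encodes the inner kinetochore protein CENP-R, fell from 16.4 ± 2.13 to 7.39 ± 0.712 CPM (SD, n = 2 libraries each; -1.15, SE 0.143, edgeR adjusted p = 9.1e-08), and was not called under the offset (-0.30). Itgb3bp was called lower when a replicate block was added to the offset, and also with the nearest transcript. The largest rises were smaller. Cenps was higher by 0.69 (SE 0.178, edgeR adjusted p = 0.0013), with 1.15 without shCtrl replicate 1 and 0.37 without shCtrl replicate 2. Cenpv was higher by 0.46 (SE 0.094, edgeR adjusted p = 1.2e-04) and Trip13, which takes apart checkpoint complexes, by 0.39 (SE 0.060, edgeR adjusted p = 3.2e-06). Under the offset only Trip13 of these was called (0.58), and with a replicate block added to the offset Cenps was called higher too.

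The anaphase-promoting complex is the ubiquitin ligase that the checkpoint holds back, and separase cuts cohesin once it is released. Of 21 such genes 13 were higher and 4 lower, with a median log2 fold change of 0.16 (9 and 4 under the offset), beside 33.8% higher and 33.6% lower of all genes tested (32.4% and 30.9% under the offset). Cdc20, the activator that MAD2 binds, rose from 142 ± 8.99 to 213 ± 1.85 CPM (SD, n = 2 libraries each; 0.58, SE 0.047, edgeR adjusted p = 2.7e-11), and by 0.275 under the offset. Anapc7 rose by 0.61 (SE 0.069, edgeR adjusted p = 1.9e-08, 0.38 under the offset) and Anapc13 by 0.59 (SE 0.160, edgeR adjusted p = 0.0021), the latter not called under the offset (0.21). Of the exonic bases of Anapc13, 29.0% are shared with Cep63 on the opposite strand. The falls were led by Cdc27, a core subunit that binds the activators, from 176 ± 2.11 to 69.6 ± 1.94 CPM (-1.34, SE 0.050, edgeR adjusted p = 2.3e-18, -0.84 under the offset). Fbxo5, the ligase inhibitor EMI1, fell by 0.63 on the log2 scale (SE 0.088, edgeR adjusted p = 6.1e-07). Anapc4 fell by 0.22 (SE 0.053, edgeR adjusted p = 5.9e-04), and was not called under the offset (0.06) or in the fits on log2(FPKM + 1) and log2(FPKM + 0.1), where it was at -0.04. Without shCtrl replicate 1 it was at -0.13. A pair of large proteins of this list were not lower at the mRNA level. The separase gene Espl1 (2118 residues, 56.1% GC) was at 0.16 (SE 0.049) and Anapc1 (1944 residues, 46.9% GC) at 0.14 (SE 0.038), both genes being singled out after their values were seen. Under the offset they were at 0.10 and 0.98. Neither was called in the FPKM fits, and Espl1 was not called without shUSP9X replicate 2 or without shCtrl replicate 1, where it was at 0.10.

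Regulators of mitotic entry went both ways. Of 20 genes 9 were higher and 4 lower, and under the offset 8 and 7, with medians of 0.06 and -0.03, and values from -1.92 to 0.84. These counts stand beside 33.8% higher and 33.6% lower of all genes tested (32.4% and 30.9% under the offset). Mybl2, a transcription factor that drives G2 and M phase genes, rose from 78.4 ± 0.00734 to 140 ± 1.54 CPM (SD, n = 2 libraries each; 0.84, SE 0.050, edgeR adjusted p = 4.9e-14). The mitotic kinase genes Plk1 and Aurka rose by 0.69 (SE 0.041, edgeR adjusted p = 4.9e-14) and by 0.45 (SE 0.044, edgeR adjusted p = 1.1e-09), and by 0.41 and 0.225 under the offset. Mastl, the Greatwall kinase, fell from 71.5 ± 0.713 to 18.9 ± 0.278 CPM (-1.92, SE 0.076, edgeR adjusted p = 9.5e-18, -1.10 under the offset). Lin9 and Lin54, subunits of the MuvB complex that binds cell cycle homology regions, fell by 0.55 (SE 0.083, edgeR adjusted p = 1.8e-06, not called under the offset) and by 0.43 (SE 0.064, edgeR adjusted p = 1.4e-06). The mitotic cyclin gene Ccnb1 and its kinase partner Cdk1, singled out after their values were seen, were at 0.20 each (SE 0.039 and 0.040), higher in both shUSP9X libraries than in either shCtrl library. Under the offset they were at 0.40 and 0.28, and Cdk1 was not called with the nearest transcript. The other cyclin genes of the list, Ccnb2 and Ccna2, were at 0.04 each and were not called. Under the offset Ccnb2 was lower (-0.14) and Ccna2 higher (0.13).

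**Figure D5:**
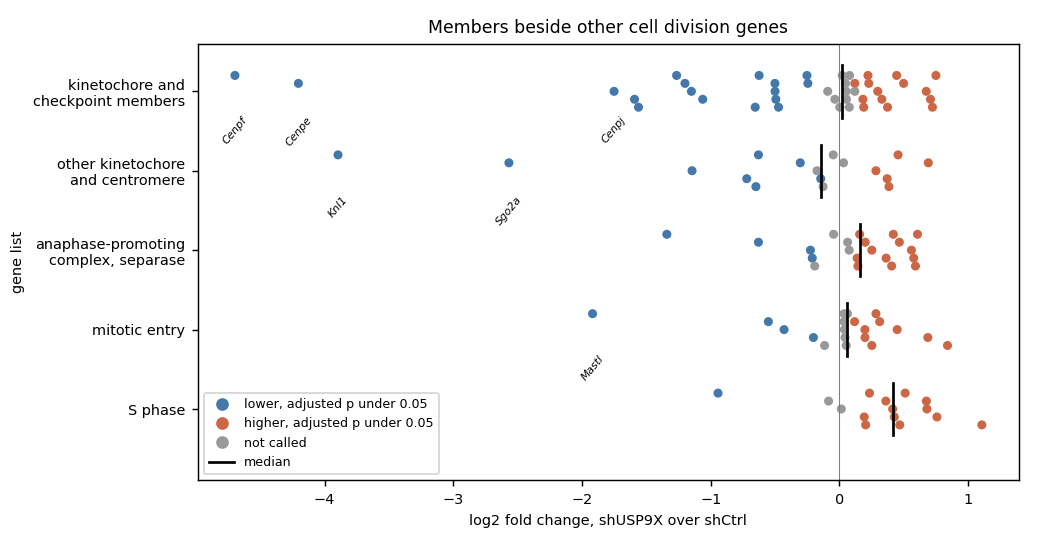
Log2 fold change, shUSP9X over shCtrl, of the tested genes of 5 lists, with genes called lower in blue, higher in red and not called in grey at an edgeR adjusted p of 0.05, and a bar at each list's median. The medians run from -0.145 for the other kinetochore genes to 0.41 for S phase genes, and the plotted genes below -2 are Cenpf, Cenpe, Knl1 and Sgo2a.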

How the data were processed

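RNA was taken from 2 shCtrl and 2 shUSP9X libraries of ID8 cells, grouped by their labels. According to the labels, mRNA was enriched on oligo(dT) beads and libraries were made with a NEBNext Ultra kit, which does not mark strand, so reads of overlapping genes on opposite strands cannot be told apart. The study's methods name GRCm38, StringTie and DESeq2, and the submitters' processing notes list fastp 0.18.0, Bowtie2 2.2.8, HISAT2, StringTie 1.3.1 and RSEM without roles. Per gene and library, the table the authors deposited gives an estimated count without normalization and an FPKM value, scaled for transcript length and library size. No library was left out.

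The design had assumed whole counts. The estimated counts were therefore rounded before filterByExpr, TMM scaling and edgeR's quasi-likelihood test (edgeR 4.0.16, R 4.3.3), with Benjamini-Hochberg adjustment over 11448 genes and no covariate. Depth was 15611363 to 19978889 counts per library, and the common biological coefficient of variation was 0.0352. Molecular identifiers are not described, so the floor of 3 counts covers counting error only. GC content, lengths, coordinates and overlaps are from GENCODE M21 (GRCm38), which holds 21973 of the 22063 identifiers and gave values for 99.8% of tested genes. Overlaps are of annotated exons. The GC and length offset used a loess span of 0.3, and its robust form with TMM scaling of the corrected counts was adopted after a first version left all genes off centre. An implied length per gene was computed from count, FPKM and library total, as the median over libraries. Promoters are from RefSeq (GRCm38.p6), without those on chromosome 18.

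The members and lists were chosen with earlier results of these data known. Named were all members, Usp9x, and from each further list the 3 largest rises and 3 largest falls with an adjusted p under 0.05 and no overlap between groups. Of the other kinetochore genes and of the leukocyte markers, 1 gene each is not reported here and is left out of the counts, medians and named genes. The procedures were tested on simulated data, in which few genes were changed and the trend was linear in GC content, with none on length. That simulation differs from these data and cannot show how much of a real difference the offset removes here. As alternatives, DESeq2 1.42.0 replaced edgeR, scaling was changed to upper quartile, to library size only or to DESeq2's size factors, and the count filter was loosened or tightened. FPKM values were also tested with limma-trend (limma 3.58.1) at pseudocounts of 1 and 0.1, keeping genes whose FPKM averaged 1 or more. A replicate block, the offset with and without it, and the omission of single libraries completed the list.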

Additional observations from a re-analysis of the deposited data

How the results depend on the processing

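Replicate numbers are shared by the groups, but same-numbered libraries did not deviate together (correlation of deviations -0.0393), so the numbers were not taken as pairs. With a replicate block the members stood at 17 lower and 14 higher, and 3810 and 3855 of all genes were called, against 3843 and 3864 without it, and the block on its own changed no call among the members and named genes. DESeq2 called 14 members lower and 11 higher, beside 23.0% and 24.5% of its tested genes. Upper-quartile scaling also called Cenpa and Bub1b higher. No scaling moved the median of all genes by more than 0.033, and leaving out each library in turn left 15 to 16 members lower and 13 to 14 higher, beside 3369 to 3718 and 3402 to 3850 of all genes, with the median of the members from -0.0265 to 0.0426.

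The GC and length offset turned the direction of several genes, and with the replicate block added it gave nearly the same values (in parentheses after each). It turned the direction of Cenpi to 0.278 (0.278), Cenpw to 0.514 (0.517), Spc24 to -0.0614 (-0.0614), Mad1l1 to -0.0309 (-0.0307), Mad2l1 to 0.809 (0.809), Ska2 to 0.308 (0.309), Aurkb to -0.128 (-0.128), Birc5 to -0.0969 (-0.0968), Anapc4 to 0.0592 (0.0597) and Ccne2 to 0.108 (0.109), all as log2 fold changes. With the transcript nearest to the implied length, an alternative added after seeing the data, the corresponding values were 0.305, 0.41, -0.144, -0.0172, 0.157, 0.322, -0.119 and -0.0995 for the members from Cenpi to Birc5 and 0.17 for Ccne2, Anapc4 was at -0.039, and Cenpa (-0.229, called) and Cenpu (-0.305, called) were lower. Members that changed sign without a call in either fit were Cenpa (-0.0144) and Bub1b (-0.0149) under the offset and Cenpo (-0.0703) with the nearest transcript. With the nearest transcript in the offset, rho was 0.318 with GC content, -0.123 with transcript length and -0.388 with protein length. These features were still those of the transcript with the longest coding sequence. In that fit 1 other kinetochore gene was higher, and 7 mitotic entry genes and 0 S phase genes were lower. The offset on the first transcript took Spearman's rho of the members' log2 fold change with GC content to 0.221 (0.221), with transcript length to -0.040 (-0.040) and with protein length to -0.412 (-0.412), GC content and transcript length being what the offset removes. It left 2 (3) other kinetochore genes higher against 5, made 7 (7) mitotic entry genes lower against 4, and left 0 (0) S phase genes lower against 1, and also 0 (0) at an unadjusted edgeR p under 0.05. Beyond the offset, DESeq2 called 3 other kinetochore genes higher, and 2 S phase genes were lower with scaling by library size only and with at least 10 counts in every library. With FPKM the rho with GC content was 0.703 (pseudocount 1) and 0.702 (pseudocount 0.1). Over the fits that left out a library, rho ran from 0.729 to 0.748 with GC content, from -0.298 to -0.253 with transcript length and from -0.336 to -0.306 with protein length, and 1 to 2 S phase genes were lower. The causes of these shifts were not tested. With 2 libraries a group, the precision rests on the spread shared across all genes.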

Other observations

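Genes that act before mitosis, in S phase, were mostly higher. Of 15 S phase genes 12 were higher and 1 lower, with a median log2 fold change of 0.41, and under the GC and length offset 13 were higher and Ccne2 and Slbp were not called, with a median of 0.27. Of all genes tested, 33.8% were higher. Ccne1, the cyclin E that opens S phase, rose from 12.5 ± 0.983 to 26.7 ± 2.90 CPM (SD, n = 2 libraries each; log2 fold change 1.11, SE 0.115, edgeR adjusted p = 3.4e-09). Mcm5, a subunit of the replicative helicase, rose by 0.76 (SE 0.040, edgeR adjusted p = 4.4e-15), and Cdt1, which loads that helicase, by 0.68 (SE 0.056, edgeR adjusted p = 3.3e-11, 0.40 under the offset). Ccne2, the paralogue of Ccne1, fell from 98.9 ± 1.20 to 51.4 ± 0.777 CPM (-0.94, SE 0.058, edgeR adjusted p = 8.6e-14), and was not called under the offset, where its value was 0.11. Its transcript has 36.3% GC, and 20.3% of its exonic bases are shared with Ints8 on the opposite strand.

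The FPKM of Cenpu differed within each group by more than its counts did, at 7.49 and 14.2 in shCtrl and 9.66 and 15.6 in shUSP9X, where the counts were 248 and 211, then 280 and 228.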
